A study of Mus musculus with 22 samples.

Results

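The major urinary protein (Mup) genes of the mouse form a tandem family on chromosome 4, and 9 of them were described here across all 22 libraries: Mup1, Mup2, Mup3, Mup4, Mup5, Mup10, Mup17, Mup20 and Mup21. They were chosen by measured values of these data, because the γH2AX and H3.3 levels were lower at this cluster in the 3Rb cross. That choice used every difference between 3Rb and the other groups, so these differences are given as descriptions without a test. The 9 genes overlap 12 of the 54520 windows of 50 kb into which the genome was divided. The annotation (RefSeq, GRCm38.p6, the assembly of mm10) names 22 Mup genes with a number, in 25 windows. The cluster, from the first to the last member window, spans chr4:59950001-62200000 and 45 windows, and 40 windows on each side (2 Mb) were taken as flanks.

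Major urinary proteins are small barrel-shaped proteins of the lipocalin family that bind volatile pheromones. Most are made by the liver and released in urine, while some are made in glands of the nose, eye and mouth. The genes arose by tandem duplication, the central copies are nearly identical, and their number is known to differ between mouse strains.

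Chromatin immunoprecipitation followed by sequencing (ChIP-seq) was done on whole testis. γH2AX, the histone H2AX phosphorylated at DNA breaks and on chromosomes that fail to pair in meiosis, was profiled at 4 weeks of age, and the replacement histone H3.3 at 6 weeks. Carriers were heterozygous for 3 (3Rb) or 1 (the 1Rb groups) Robertsonian translocations, which join chromosomes at their centromeres, and the title of the study concerns how these alter the distribution of both marks. For γH2AX, 3Rb was the F1 of B6.SPRET7MOLF12 by RBF/Dnj (3 libraries). 1Rb_M was the F1 of CBy.RBF-Rb(8.12)5Bnr/J by B6.SPRET7MOLF12, 1Rb_P was the F1 of C57BL/6J by CBy.RBF-Rb(8.12)5Bnr/J (3 libraries each), and B6 was C57BL/6J (1 library). For H3.3, 3Rb was the same cross as above, 1Rb was the 1Rb_M cross, and Cg was the B6.SPRET7MOLF12 control (3 libraries each). The 3 inputs, DNA without precipitation, were titled 1Rb_M (4 weeks), Cg (6 weeks) and B6 (4 weeks). No input of 3Rb was analysed here. By its strain label the 1Rb_M input came from the 1Rb_P cross, and it is named here by its title. Since 3Rb differs from every other group in its parents too, strain, gene copy number and translocation cannot be told apart in comparisons with 3Rb. The same holds for 1Rb against Cg, which differ in parents and in translocation.

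Libraries held 21535147 to 56385465 counts for γH2AX, 41278440 to 128348440 for H3.3 and 11876426 to 51651953 for input. The X chromosome took 12.3 to 20.6% of γH2AX counts and 3.16 to 3.17% of input counts; γH2AX covers the X and Y chromosomes in meiotic cells of the testis. γH2AX replicates 1 and 2 of 1Rb_M stood apart, with 12.3% on X each, against 18.9% in replicate 3 and 17.7 to 18.9% in 3Rb and 1Rb_P. Chi-square per degree of freedom in 1Rb_M was 28.1 (replicates 1 and 3), 34.6 (2 and 3) and 2.76 (1 and 2). Comparisons with 1Rb_M are therefore also given with replicate 3 alone. In H3.3, replicate 1 of 1Rb and replicate 1 of Cg each lay farther from the other libraries of their group (chi-square per degree of freedom 5.61 and 5.85 in 1Rb, 7.57 and 5.48 in Cg) than those did from each other (1.61 in 1Rb and 1.48 in Cg). The B6 γH2AX antibody has another supplier label than that of the carriers. The labels do not say that replicates are separate animals, so p-values and SDs measure only the spread between these libraries.

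The sequences before the gene starts show how alike the members are, which bears on how reads can be assigned to them. RefSeq promoters (250 bases before to 50 after each start, GRCm38.p6) were matched for 14 of the 22 numbered Mup genes, among them 6 of the 9 members. Those of Mup1, Mup5 and Mup20 are not shown. The stretch of each of the 6 that aligns with 125 bases upstream of Mup17 is given 5′ to 3′, with capitals for bases that differ from Mup17.
Mup17, chr4:61595950-61596074, minus strand: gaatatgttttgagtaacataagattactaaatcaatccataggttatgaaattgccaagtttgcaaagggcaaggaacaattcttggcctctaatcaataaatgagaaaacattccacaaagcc
Mup2, chr4:60139979-60140103, minus strand: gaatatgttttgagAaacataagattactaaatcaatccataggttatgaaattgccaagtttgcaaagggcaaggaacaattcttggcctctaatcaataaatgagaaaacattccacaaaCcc
Mup10, chr4:60582279-60582403, minus strand: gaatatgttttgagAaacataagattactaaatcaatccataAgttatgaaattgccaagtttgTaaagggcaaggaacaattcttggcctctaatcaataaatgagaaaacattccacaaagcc
Mup4, chr4:59960758-59960881, minus strand: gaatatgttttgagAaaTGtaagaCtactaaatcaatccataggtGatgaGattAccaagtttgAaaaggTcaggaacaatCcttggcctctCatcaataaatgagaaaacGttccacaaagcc
Mup3, chr4:62087387-62087510, minus strand: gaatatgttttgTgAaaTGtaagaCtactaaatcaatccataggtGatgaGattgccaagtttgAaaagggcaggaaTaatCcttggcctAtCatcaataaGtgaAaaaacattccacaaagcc
Mup21, chr4:62150905-62151028, minus strand: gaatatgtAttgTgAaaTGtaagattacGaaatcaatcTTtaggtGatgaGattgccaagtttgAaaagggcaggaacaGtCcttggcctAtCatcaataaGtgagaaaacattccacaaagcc
Over this stretch Mup2 differed from Mup17 in 2 aligned columns and Mup10 in 3. Mup4 differed in 13, Mup3 in 15 and Mup21 in 17, in each case with 1 gap.

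Over the whole promoters, Mup17 shared 98.3% of aligned columns with Mup2 and 94.6% with Mup10, against 81.7% with Mup4, 76.9% with Mup3 and 74.6% with Mup21. Words of 50 bases were also compared, on both strands. Of such words in the Mup17 promoter, 85.3% also occurred in the promoter of another Mup gene, and 64.9% of those of Mup2. The share was 6.0% for Mup10, 2.8% for Mup4 and 0 for Mup3 and Mup21. Only the available Mup promoters were searched and not the rest of the genome, so these shares are lower bounds. A read within such a shared word matches more than 1 gene. How the counting treated reads with several matches is not given in the sources used here.

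γH2AX and H3.3 were both lower in 3Rb over the middle of the cluster, and also, by less, in the first window of Mup5 next to it. Levels are given as the count of a window divided by the median count of autosomal windows in the same library, so that a level of 1 is the typical window. From chr4:60050001-61800000, 28 tested windows had all 3 libraries of 3Rb below all 6 libraries of the other replicated groups in both marks, as had 2.31% of all windows. Mup2, Mup1, Mup10 and Mup17 lie in this stretch, together with 12 other numbered Mup genes. Mup4, Mup5, Mup20, Mup3 and Mup21 lie outside it, with Mup6. This division of the members was made after their values were seen.

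**Figure D1:**
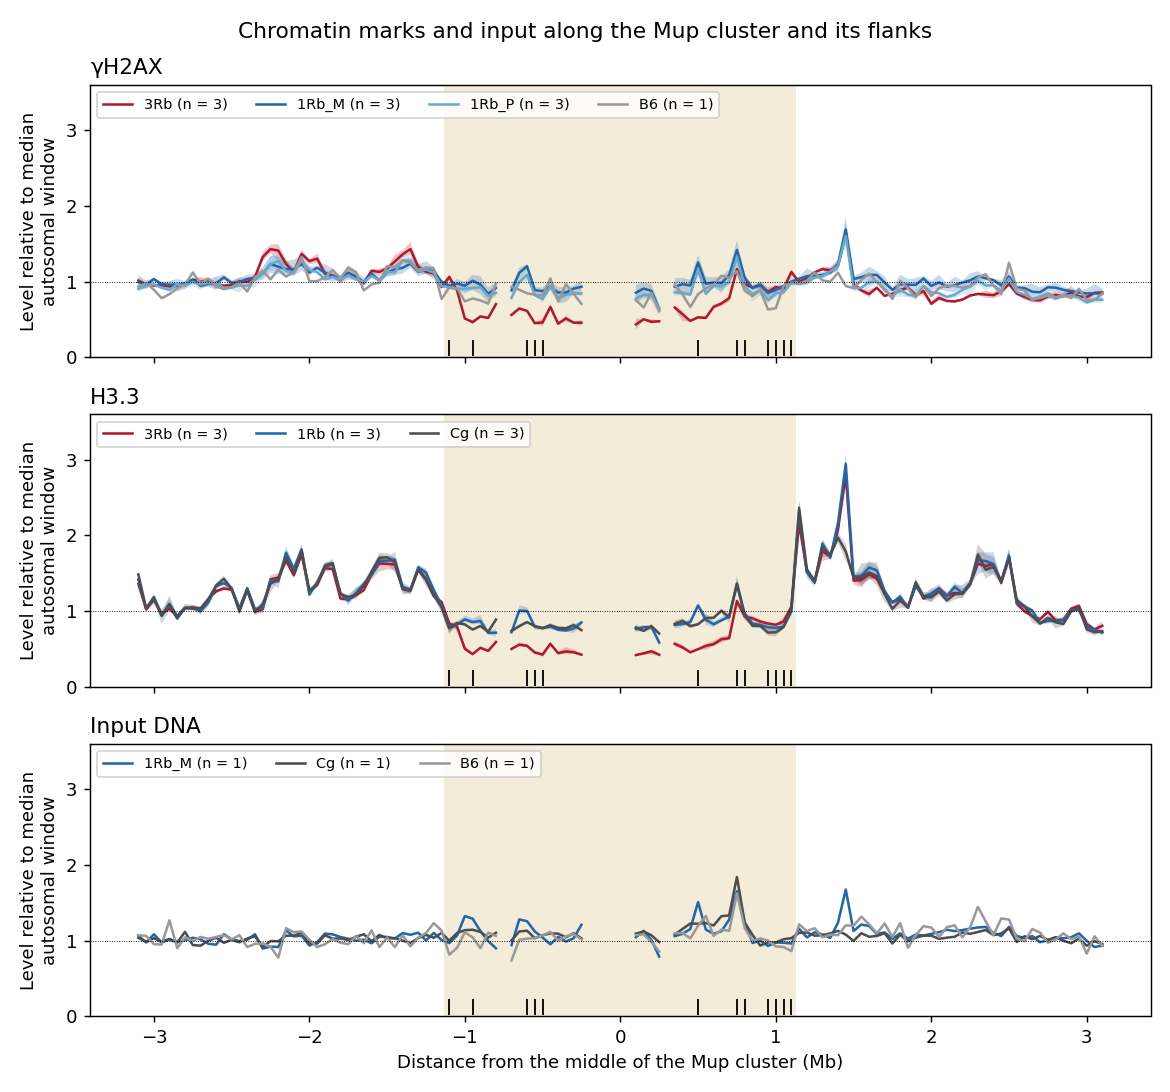
Levels of γH2AX, H3.3 and input along the Mup cluster (shaded) and its flanks, against the distance from the middle of the cluster in Mb; lines are group means, bands the lowest and highest of 3 libraries, and ticks mark the member windows. Windows with a B6 input level under 0.3 are left blank. 3Rb lies lower in both marks over the middle of the cluster, at medians of 0.518 and 0.490. The inputs of 1Rb_M, Cg and B6 lie at 1.09, 1.1 and 1.06 there, and none of these inputs is of 3Rb.

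Within the low stretch, the median γH2AX level over its 28 windows was 0.518 ± 0.012 in 3Rb, 0.927 ± 0.081 in 1Rb_M and 0.850 ± 0.021 in 1Rb_P (SD, n = 3 libraries), and 0.834 in the B6 library. The median H3.3 level was 0.490 ± 0.0076 in 3Rb, against 0.804 ± 0.017 in 1Rb and 0.804 ± 0.018 in Cg. In the other 11 tested windows of the cluster, the first Mup5 window among them, the median γH2AX level was 0.936 ± 0.016 in 3Rb, 0.946 ± 0.039 in 1Rb_M and 0.896 ± 0.016 in 1Rb_P. There H3.3 stood at 0.855 ± 0.018 in 3Rb, 0.822 ± 0.010 in 1Rb and 0.806 ± 0.034 in Cg. The 3Rb libraries did not overlap any other group in the middle of the cluster. In the medians of the other 11 windows they overlapped 1Rb_M in γH2AX and Cg in H3.3, and lay above 1Rb_P and 1Rb.

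Mup17, a member of the central group of urinary proteins, had the largest γH2AX difference of the cluster. Its window (chr4:61550001-61600000) had γH2AX levels of 0.541, 0.504 and 0.543 in 3Rb, 1.32, 1.35 and 1.085 in 1Rb_M, 1.17, 1.16 and 1.15 in 1Rb_P and 0.836 in B6. H3.3 levels were 0.50, 0.495 and 0.496 in 3Rb, 1.07, 1.05 and 1.1 in 1Rb and 0.835, 0.841 and 0.805 in Cg. The 3Rb libraries lay below every other library in both marks, and the 1Rb libraries lay above Cg and the 1Rb_M and 1Rb_P libraries above B6. The fitted log2 differences (edgeR) in γH2AX were −1.25 ± 0.076 for 3Rb minus 1Rb_M and −1.12 ± 0.077 for 3Rb minus 1Rb_P (SE, n = 3 per group). In H3.3 they were −1.11 ± 0.058 for 3Rb minus 1Rb and −0.72 ± 0.059 for 3Rb minus Cg.

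Mup2, another urinary member, lies at chr4:60135913-60139977. Its window had γH2AX levels of 0.459, 0.494 and 0.443 in 3Rb, 1.06, 1.09 and 0.888 in 1Rb_M, 0.915, 0.908 and 0.927 in 1Rb_P and 0.779 in B6. H3.3 levels were 0.419, 0.453 and 0.422 in 3Rb, 0.905, 0.827 and 0.837 in 1Rb and 0.747, 0.762 and 0.760 in Cg. Again 3Rb lay below all other libraries in both marks. The log2 differences were −1.13 ± 0.084 and −0.97 ± 0.086 in γH2AX, from 1Rb_M and from 1Rb_P, and −0.98 ± 0.069 and −0.79 ± 0.068 in H3.3, from 1Rb and from Cg.

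Mup1, also a urinary member, lies at chr4:60498012-60501960 across 2 windows. In the window that starts at 60450001, γH2AX levels were 0.619, 0.613 and 0.612 in 3Rb, 1.22, 1.23 and 1.16 in 1Rb_M, 1.18, 1.02 and 1.08 in 1Rb_P and 0.846 in B6. H3.3 levels there were 0.536, 0.568 and 0.522 in 3Rb, 1.05, 0.972 and 0.984 in 1Rb and 0.848, 0.850 and 0.866 in Cg. The 3Rb libraries again lay below all others, and 1Rb lay above Cg as it did at Mup17. In the window that starts at 60500001, γH2AX levels were 0.447, 0.447 and 0.461 in 3Rb, 0.921, 0.928 and 0.818 in 1Rb_M, 0.820, 0.818 and 0.828 in 1Rb_P and 0.829 in B6. H3.3 levels there were 0.448, 0.445 and 0.468 in 3Rb, 0.811, 0.751 and 0.821 in 1Rb and 0.794, 0.824 and 0.784 in Cg. Here 3Rb was low again, but 1Rb and Cg overlapped. The log2 differences of 3Rb in the Mup1 windows were −0.98 in both for γH2AX from 1Rb_M and −0.88 and −0.80 for H3.3 from 1Rb.

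Mup10, also of the central group (chr4:60578260-60582276), had γH2AX levels of 0.514, 0.413 and 0.459 in 3Rb, 0.925, 0.922 and 0.776 in 1Rb_M, 0.789, 0.795 and 0.727 in 1Rb_P and 0.818 in B6. H3.3 levels were 0.448, 0.395 and 0.435 in 3Rb, 0.796, 0.784 and 0.759 in 1Rb and 0.777, 0.756 and 0.784 in Cg. The 3Rb libraries were the lowest in both marks, and the other groups overlapped in H3.3. The log2 differences were −0.93 ± 0.091 from 1Rb_M and −0.73 ± 0.093 from 1Rb_P in γH2AX, and −0.86 ± 0.069 from 1Rb and −0.85 ± 0.068 from Cg in H3.3.

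**Figure D2:**
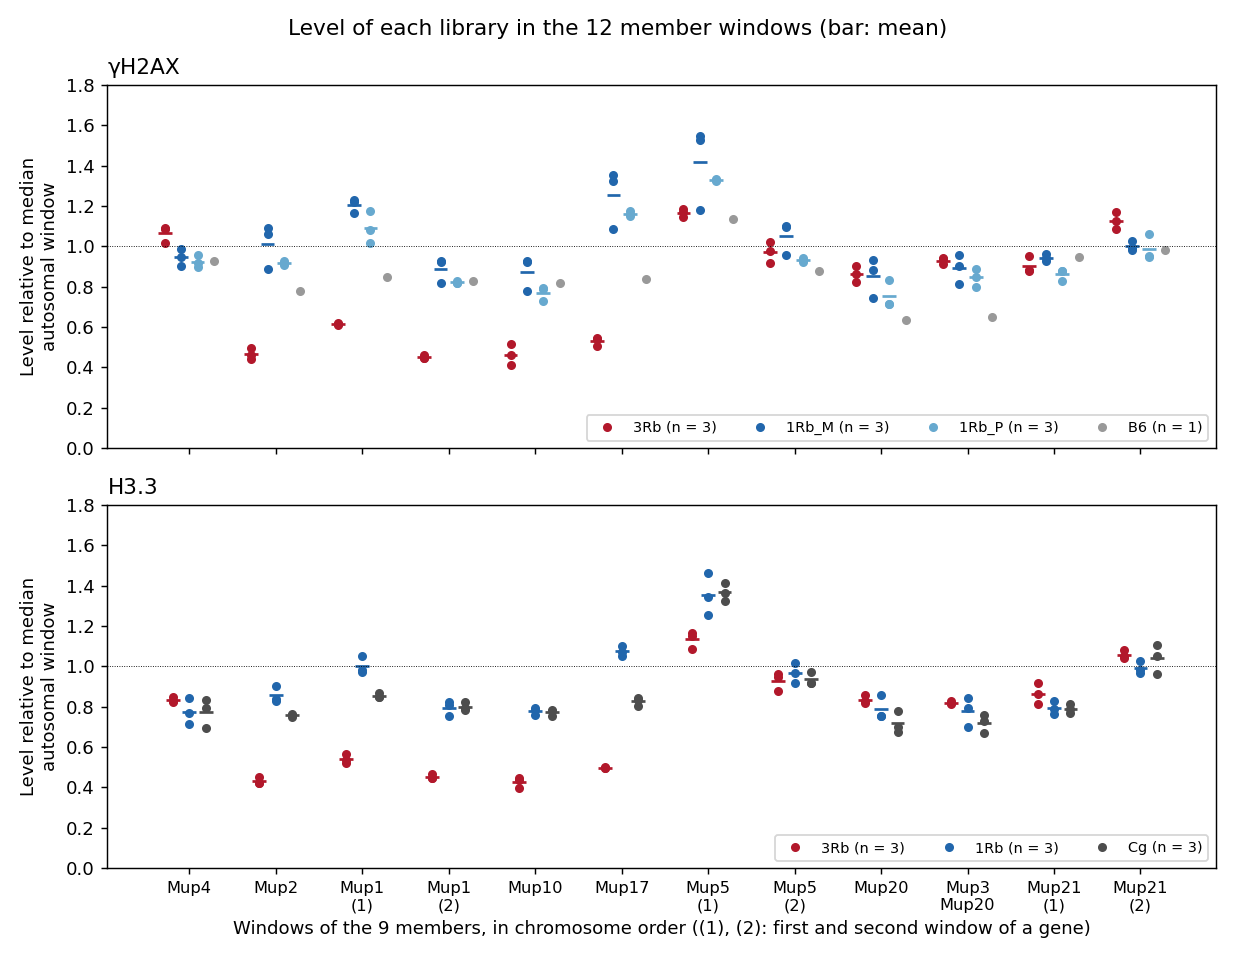
Level of each library (dots) and group mean (bars) in the 12 member windows in chromosome order, relative to the median autosomal window, for γH2AX (top) and H3.3 (bottom). In the windows of Mup2, Mup1, Mup10 and Mup17 the 3Rb libraries lie between 0.395 and 0.619, below all others; in the windows of Mup4, Mup20, Mup3 and Mup21 they lie among or above the others.

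Mup4, which is made in the nasal mucosa, lies at the proximal edge (chr4:59956804-59960667) and was not lower in 3Rb. Its γH2AX levels were 1.09, 1.02 and 1.08 in 3Rb, 0.947, 0.985 and 0.902 in 1Rb_M, 0.917, 0.898 and 0.958 in 1Rb_P and 0.925 in B6. H3.3 levels were 0.830, 0.850 and 0.822 in 3Rb, 0.841, 0.713 and 0.770 in 1Rb and 0.693, 0.795 and 0.834 in Cg. For γH2AX the 3Rb libraries lay above all others, with a log2 difference of 0.17 ± 0.060 from 1Rb_M, whereas for H3.3 the groups overlapped.

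Mup5, a gland-expressed member, spans chr4:61831319-61858043 and marks the distal end of the low stretch. In its first window (start 61800001), γH2AX levels were 1.185, 1.14 and 1.17 in 3Rb, 1.53, 1.55 and 1.182 in 1Rb_M, 1.33, 1.33 and 1.33 in 1Rb_P and 1.14 in B6. H3.3 levels there were 1.08, 1.17 and 1.15 in 3Rb, 1.46, 1.26 and 1.34 in 1Rb and 1.37, 1.41 and 1.32 in Cg. The 3Rb libraries were lower in H3.3 than all others, but in γH2AX the first of them lay just above replicate 3 of 1Rb_M. The log2 difference of 3Rb was −0.29 ± 0.080 from 1Rb_M and −0.18 ± 0.081 from 1Rb_P in γH2AX, −0.25 ± 0.054 from 1Rb and −0.26 ± 0.053 from Cg in H3.3. With replicate 3 of 1Rb_M alone, the γH2AX difference was 0.011 ± 0.072. In its second window (start 61850001) the 3Rb libraries overlapped each other group in both marks, with log2 differences of 3Rb between −0.12 and 0.07. The 1Rb_M libraries there, at 1.10, 1.10 and 0.958 in γH2AX, lay above those of 1Rb_P, at 0.941, 0.924 and 0.930.

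Mup20 encodes darcin, a male pheromone in its own right, and lies at chr4:62011337-62054143. In its first window (start 62000001), γH2AX levels were 0.864, 0.821 and 0.903 in 3Rb, 0.930, 0.885 and 0.743 in 1Rb_M, 0.716, 0.715 and 0.835 in 1Rb_P and 0.632 in B6. H3.3 levels were 0.860, 0.828 and 0.818 in 3Rb, 0.858, 0.754 and 0.752 in 1Rb and 0.672, 0.779 and 0.701 in Cg. Here 3Rb lay above Cg in H3.3 and overlapped 1Rb in both marks. The log2 difference in H3.3 was 0.25 ± 0.063 from Cg, the highest of the cluster in that comparison. In its second window (start 62050001), which also holds Mup3, γH2AX levels were 0.912, 0.935 and 0.941 in 3Rb, 0.902, 0.956 and 0.811 in 1Rb_M and 0.850, 0.800 and 0.888 in 1Rb_P. H3.3 levels there were 0.816, 0.827 and 0.815 in 3Rb, 0.793, 0.845 and 0.701 in 1Rb and 0.669, 0.759 and 0.731 in Cg. The 3Rb libraries again overlapped 1Rb_M and 1Rb and lay above 1Rb_P and Cg.

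Mup21 is the last member (chr4:62147832-62150841), and its first window (start 62100001) had log2 differences of 3Rb between −0.06 and 0.15. In its other window (start 62150001), shared with the zinc finger gene Zfp37, γH2AX levels were 1.13, 1.17 and 1.09 in 3Rb, 0.991, 1.03 and 0.980 in 1Rb_M and 0.951, 0.949 and 1.06 in 1Rb_P. There 3Rb lay above both 1Rb groups in γH2AX, by a log2 of 0.17 ± 0.058 from 1Rb_M and 0.20 ± 0.059 from 1Rb_P, while H3.3 differences were 0.10 and 0.06.

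All 12 member windows passed the minimum mean count of 10 in both marks. The counts of calls that follow (edgeR, adjusted p under 0.05) only restate the choice of the members, and nothing is read from them. In γH2AX, 6 member windows were lower and 2 higher in 3Rb against 1Rb_M, where 20.2% and 17.9% of all windows were called lower and higher (38.1% in all). Against 1Rb_P they numbered 5 and 2, beside 12.8% and 10.1% of all windows (22.9% in all). In H3.3, 6 were lower and 0 higher against 1Rb (background 4.02% and 2.08%, 6.1% in all), and 6 were lower and 2 higher against Cg (background 6.16% and 3.34%, 9.51% in all). The median log2 difference over the 12 windows was −0.21, −0.06, −0.14 and −0.13 in these comparisons, beside 0.01, 0.00, 0.00 and 0.00 over all windows, and the members ranged from −1.25 to 0.25. Both 1Rb_M and 1Rb_P are compared with the same 3Rb libraries, as are 1Rb and Cg.

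The other numbered Mup genes followed their place along the cluster. The 12 in the low stretch, Mup7 to Mup9, Mup11 to Mup16, Mup18, Mup19 and Mup22, had log2 differences of 3Rb minus 1Rb_M between −1.03 and −0.44 in γH2AX and of 3Rb minus 1Rb between −0.99 and −0.45 in H3.3. Mup6, between Mup4 and the stretch, stood at −0.15 and −0.05.

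**Figure D3:**
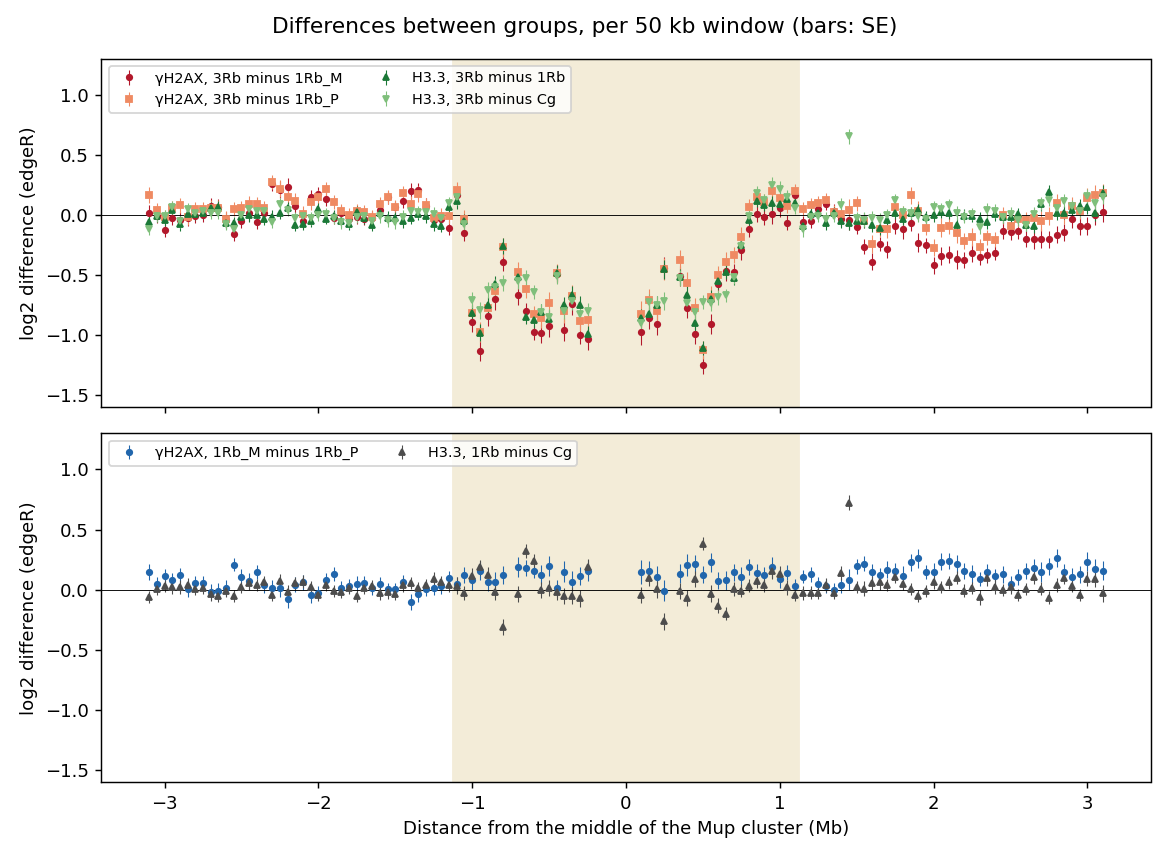
log2 differences between groups (edgeR; bars are SE) per 50 kb window against the distance from the middle of the Mup cluster (shaded), in Mb; windows with a B6 input level under 0.3 are not drawn. The 4 comparisons with 3Rb (top) fall to between −1.25 and −0.26 in the low stretch; in the flanks γH2AX lies between −0.42 and 0.27 and H3.3 between −0.12 and 0.19, apart from 0.65 against Cg at Alad. Those without 3Rb (bottom) stay between −0.01 and 0.23 for γH2AX and between −0.31 and 0.38 for H3.3 in the cluster, with 0.72 at Alad.

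The differences were uneven within the low stretch and at its ends. At the proximal end, the log2 difference of 3Rb minus 1Rb_M in γH2AX was −0.15 in the Mup6 window and −0.89 in the next, that of Mup7. Toward the distal end it was −0.44 at Mup14, −0.51 at Mup15, −0.99 at Mup16, −1.25 at Mup17, −0.57 at Mup18, −0.48 at Mup19 and −0.29 and −0.12 in the windows of Mup5. In H3.3 against 1Rb the same windows stood at −0.45, −0.51, −0.89, −1.11, −0.55, −0.52, −0.25 and −0.04. All 3 libraries of 3Rb lay below the 6 others in both marks in 28 of the 39 tested cluster windows and in 5 of the 12 member windows, where 2.31% of all windows were so placed. No flank window was: 13 distal flank windows met this in γH2AX alone and 4 proximal ones in H3.3 alone, with 16.4% and 5.62% of all windows so placed. The 28 windows fell, with untested windows skipped, into a run of 20 and a run of 8, parted by a window of low counts (start 61350001, levels 0.0718 to 0.144 in all libraries). Among 648 such runs in the genome, with a median length of 1 window, the run of 20 was the longest and the next 4 in length were on Y. The cluster was chosen for these values, so its counts and runs are a description. Inside the run of 20, 5 windows (60850001 to 61100000) held 0 counts in all 22 libraries, which allows up to 3 counts per window and library. Including these, 6 of the 45 cluster windows were not tested.

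The genes next to the cluster differed less between 3Rb and the other groups than the windows of the low stretch did. At the proximal edge lie Slc46a2, a transporter gene, and Snx30, a sorting nexin gene, and at the distal edge Zfp37 and Slc31a2, a copper transporter gene. Over their 7 gene windows (overlapping windows counted once per gene) the log2 differences of 3Rb ranged from −0.11 to 0.17 against 1Rb_M and from −0.03 to 0.20 against 1Rb_P in γH2AX, and from −0.09 to 0.10 against 1Rb and −0.12 to 0.10 against Cg in H3.3. The γH2AX values of 0.17 and 0.20 are those of the Zfp37 window that it shares with Mup21, a member window. Over the 40 windows of the proximal flank the median γH2AX difference from 1Rb_M was 0.01. Over the distal flank it was −0.15 from 1Rb_M and −0.01 from 1Rb_P, and in H3.3 0.00 from 1Rb.

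For 3Rb against 1Rb_M in γH2AX and against 1Rb in H3.3, the differences were close in size window by window. Across the 12 member windows, the γH2AX difference of 3Rb from 1Rb_M and the H3.3 difference of 3Rb from 1Rb had a Pearson r of 0.99, and across the 39 cluster windows 0.98. Across the 80 flank windows r was 0.09. The γH2AX difference minus the H3.3 difference had a median of −0.08 in the member windows, with a range of −0.19 to 0.06. Across the cluster windows it ranged from −0.25 to 0.18. Other pairs of comparisons were not compared in this way. These values describe windows that were chosen for being low in both marks. The marks were measured in different libraries, at different ages and with different antibodies. The windows share the reference sequence, its repeats and the strain of the animals.

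Relative to input, the sum of the 12 member windows held less of both marks in all replicated groups, and least in 3Rb, but they went different ways. The mean γH2AX level in 3Rb was above all 3 inputs at Mup4 (1.06, against 0.966 in 1Rb_M, 0.999 in Cg and 0.813 in B6) and in the last Mup21 window (1.13, against 0.961, 1.03 and 0.861). The summed share of the 12 member windows in autosomal counts, over that in the pooled 3 inputs, had a mean log2 of −0.52 ± 0.031 in 3Rb, −0.13 ± 0.11 in 1Rb_M and −0.25 ± 0.017 in 1Rb_P for γH2AX (SD, n = 3), and −0.38 in the B6 library. For H3.3 it was −0.77 ± 0.010 in 3Rb, −0.46 ± 0.042 in 1Rb and −0.54 ± 0.029 in Cg. The pooled inputs hold no 3Rb library, so the number of copies and the density of a mark per copy cannot be told apart in 3Rb.

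Among the 3 inputs, the members had slightly different levels, and the ratios here are of counts over the median autosomal window. As shares of all autosomal counts, the ratios over the 9 members were 1.03 (1Rb_M to Cg), 1.10 (1Rb_M to B6) and 1.07 (Cg to B6), with no interval computed. The ratio of 1Rb_M to Cg was 1.02 over the 9 members (95% interval 0.991 to 1.04), that of 1Rb_M to B6 1.1 (1.05 to 1.15) and that of Cg to B6 1.08 (1.03 to 1.13). Over the low stretch these ratios were 0.987 (0.970 to 1.00), 1.05 (1.02 to 1.08) and 1.07 (1.04 to 1.10). Intervals are exact and cover counting error only, since each input is 1 library. By member, 1Rb_M over Cg was 1.23 (1.14 to 1.34) at Mup17, with input levels of 1.51 in 1Rb_M, 1.22 in Cg and 1.20 in B6. It was 1.13 (1.03 to 1.23) at Mup2 and 1.11 (1.02 to 1.21) in the first Mup1 window. In the first Mup5 window, the member window with the highest input level (1.65 in 1Rb_M, 1.84 in Cg, 1.62 in B6), it was 0.897 (0.834 to 0.965). In 90% of autosomal windows this ratio lay between 0.903 and 1.1, so Mup17, Mup2, the first Mup1 window and the first Mup5 window lay outside that range and the other 8 member windows inside it.

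The comparisons that do not involve 3Rb were not themselves used to choose the members. They share the libraries of 1Rb, Cg, 1Rb_M and 1Rb_P with those that were, so their p-values are not independent of the choice. H3.3 differed between 1Rb and Cg in 2 of the 12 member windows. Mup17 was higher in 1Rb, at 1.07 ± 0.027, against 0.827 ± 0.020 in Cg (SD, n = 3), a log2 difference of 0.38 ± 0.055 (SE; edgeR adjusted p = 5.75e-06). The first Mup1 window was higher at 1.00 ± 0.043 in 1Rb, against 0.855 ± 0.0095 in Cg, a log2 of 0.24 ± 0.057 (edgeR adjusted p = 0.00997). Without replicate 1 of 1Rb, which stood apart, the first Mup1 window stood at 0.20 ± 0.061 and was not called (edgeR adjusted p = 0.0629), and Mup17 at 0.38 ± 0.060. Without replicate 1 of Cg, which also stood apart, both stayed called, at 0.23 ± 0.068 for Mup1 and 0.40 ± 0.067 for Mup17. Of all windows, 1.08% were called higher and 2.62% lower (3.71% in all). DESeq2 also called 2 member windows, both higher, and by edgeR 4 had an unadjusted p under 0.05. The lowest log2 difference among the members was −0.04. The median over the 12 windows was 0.03, beside 0.00 over all windows.

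Elsewhere in the cluster, H3.3 was higher in 1Rb than in Cg at Mup9 (log2 0.32 ± 0.061, edgeR adjusted p = 0.000477) and lower at Mup14 (−0.26 ± 0.073, edgeR adjusted p = 0.0304). It was also lower in 2 windows without an annotated gene, those that start at 60250001 (−0.31 ± 0.066, edgeR adjusted p = 0.00244) and 61700001 (−0.20 ± 0.057, edgeR adjusted p = 0.0375). With Mup17 and Mup1, 3 of the 39 tested cluster windows were called higher and 3 lower.

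These H3.3 differences ran alongside those of the inputs. The log2 ratio of the 1Rb_M input to the Cg input was set against the H3.3 difference of 1Rb minus Cg. Pearson r was 0.83 across the 39 tested cluster windows and 0.80 across the 12 member windows. The input ratio ran from −0.67 to 0.30 in the cluster and from −0.16 to 0.30 in the members. The 39 windows include ones of low counts, and r without these was not computed. The inputs and the H3.3 libraries are separate libraries, of 4 and 6 weeks for 1Rb_M and 1Rb. They also differ in cross: by its strain label this input came from the 1Rb_P cross, and the H3.3 1Rb libraries from the 1Rb_M cross. The values are given as a description. In the 80 flank windows r was 0.61, and 0.13 without the window that holds Alad. Alad encodes a heme synthesis enzyme and is known to differ in copy number between mouse strains. Its window (chr4:62500001-62550000, with Hdhd3 and Pole3) was the 1 flank window of 80 called in H3.3 between 1Rb and Cg, with H3.3 levels of 2.95 in 1Rb, against 1.79 in Cg (log2 0.72 ± 0.061). The input there had a ratio of 1Rb_M to Cg of 1.55 (1.43 to 1.69). The part of copy number in the H3.3 differences at Mup17, Mup1 and Mup9 was not tested.

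**Figure D4:**
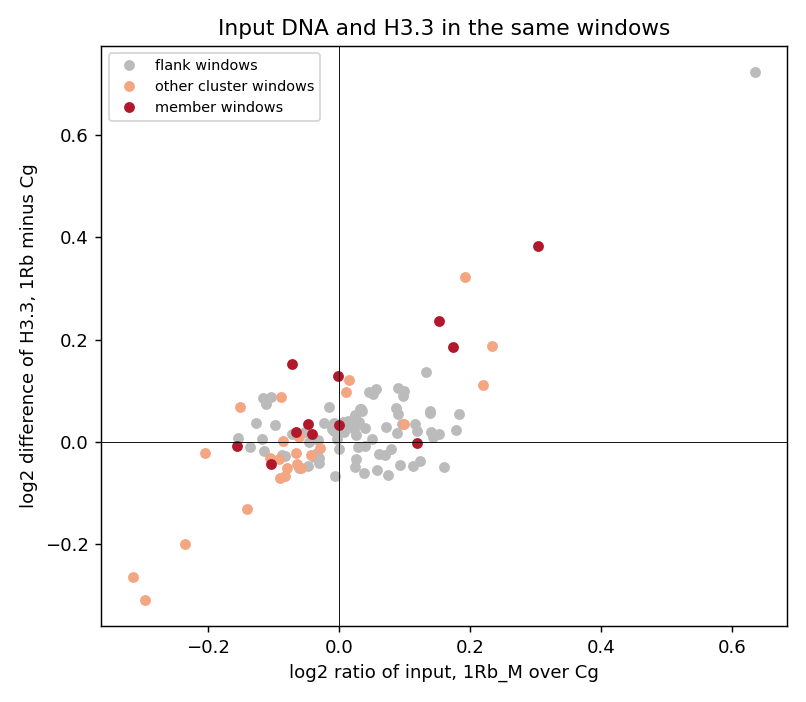
log2 difference of H3.3 between 1Rb and Cg (edgeR, 3 libraries each) against the log2 ratio of the 1Rb_M input to the Cg input (1 library each), 1 dot per 50 kb window; 2 cluster windows with a B6 input level under 0.3 are not drawn. Cluster windows spread along both axes together, and the flank window at the far upper right is that of Alad (0.72 in H3.3). The strain label of the 1Rb_M input is that of the 1Rb_P cross, another cross than that of the H3.3 1Rb libraries.

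γH2AX did not give a call between 1Rb_M and 1Rb_P in any of the 12 member windows by edgeR (adjusted p 0.132 to 0.785), where 1.06% of all windows were called lower and 0.299% higher (1.36% in all). DESeq2 called 0 and 5 had an unadjusted p under 0.05. The differences of 1Rb_M minus 1Rb_P were above 0 in 12 of 12 windows, from 0.03 to 0.20, with a median of 0.13 in the members and of 0.10 in the flanks. The sign rested on the libraries that stood apart. With replicate 3 of 1Rb_M alone the median was −0.04 and 1 window was called, the first of Mup5 (−0.19 ± 0.072), where 16.2% of all windows were called. Without replicate 3, when only the libraries that stood apart remain in 1Rb_M, the median was 0.22 and 10 were called higher, where 25.3% of all windows were called, 5317 higher and 8116 lower. For 3Rb minus 1Rb_M with replicate 3 alone, Mup17 stood at −1.0, Mup2 at −0.90, the Mup1 windows at −0.89 and −0.83 and Mup10 at −0.72. Mup4 stood at 0.27, the Mup5 windows at 0.01 and 0.05 and the Mup20 windows at 0.25 and 0.23. The Mup21 windows stood at −0.03 and 0.23. Values without replicates 1 and 2 assume that the lone library varies like those of the other groups.

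Promoter sequence took no part in the choice of the members and could be compared for 14 of the numbered Mup genes, among them 3 of the 4 members in the low stretch (Mup2, Mup10 and Mup17) and 3 of the 5 outside it (Mup3, Mup4 and Mup21). The 10 promoters available from the low stretch shared 89.9 to 99.0% of aligned columns pairwise, with a median of 96.5% over 45 pairs. The 4 from outside it, Mup4, Mup6, Mup3 and Mup21, shared 73.7 to 88.6% with those 10 (median 80.95% over 40 pairs) and 84.2 to 92.9% among themselves. The ranges of within-stretch and between-group identity did not overlap, but their ends lay close (89.9% for Mup10 with Mup14, 88.6% for Mup6 with Mup7). Unaligned ends were left out, so pairs with Mup7 rest on fewer columns (201 with Mup6, 163 with Mup9). The stretch itself was drawn from the mark values. Pairs of genes share members and descent and are no independent replicates, so no test was made.

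**Figure D5:**
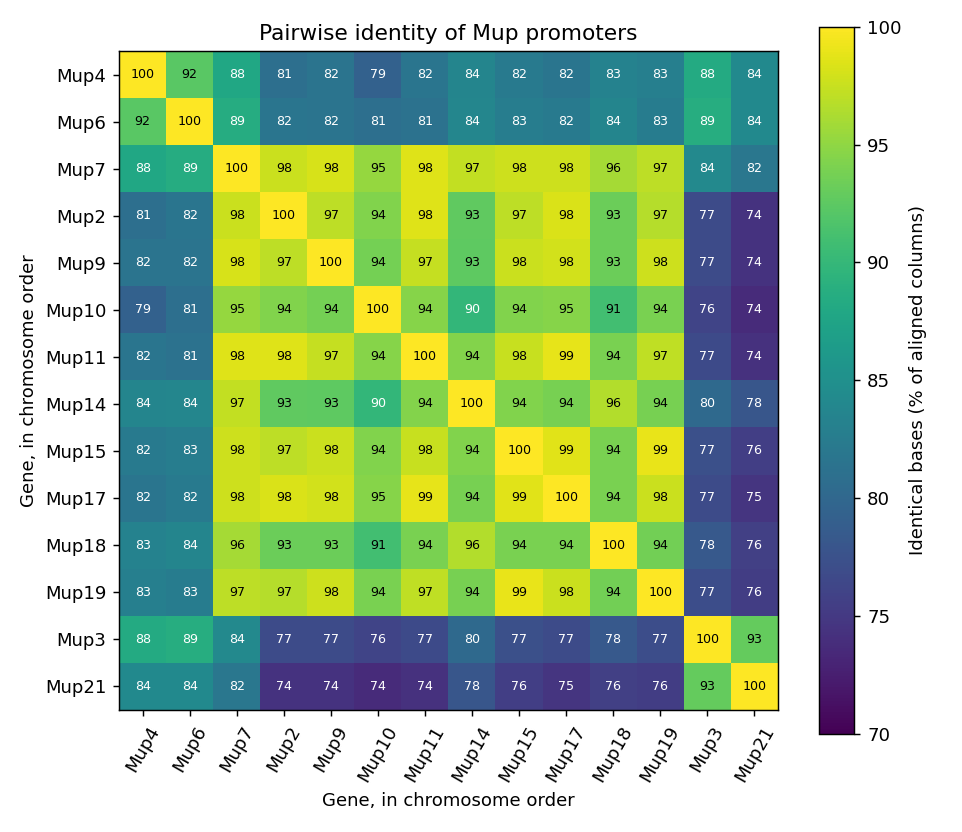
Pairwise identity of the RefSeq promoters of 14 Mup genes in chromosome order, as the percentage of identical bases in aligned columns (colour and number). The block from Mup7 to Mup19 is at 89.9% or above, while Mup4, Mup6, Mup3 and Mup21 stay at or below 88.6% with that block.

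Other members of the lipocalin family outside the cluster were set beside the Mup genes. Of 25 genes listed, 23 were in the annotation, in 18 windows. In γH2AX, 10 of the 18 were lower and 0 higher in 3Rb against 1Rb_M and 5 and 0 against 1Rb_P, beside the backgrounds of 20.2% and 12.8% lower. In H3.3, 2 were lower against Cg (background 6.16% lower), and log2 differences from 1Rb lay between −0.12 and 0.04. The medians of 3Rb were −0.17 and −0.11 in γH2AX, from 1Rb_M and from 1Rb_P, and −0.03 and −0.05 in H3.3, from 1Rb and from Cg. In γH2AX against 1Rb_M these windows ranged from −0.43 to 0.50, and the 12 member windows from −1.25 to 0.17 with a median of −0.21. Without 3Rb, lipocalin windows ranged from −0.37 to 0.24 for 1Rb_M minus 1Rb_P and from −0.16 to 0.11 for 1Rb minus Cg.

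Windows outside chromosome 4 with a protein-coding gene were ranked by likeness to the mean profile of the 12 member windows. The measure was the root mean square difference of centred log2 CPM over the 18 replicated libraries. Among the most alike were those of Obox1 (0.0554), Vmn1r118 (0.0592) and Zfp936 (0.0625) on chromosome 7 and Gm4788 on chromosome 1 (0.0681). Obox1 is an oocyte homeobox gene and Vmn1r118 a vomeronasal receptor gene. In these 4 windows the log2 differences of 3Rb minus 1Rb_M lay between −0.46 and −0.32 in γH2AX and of 3Rb minus 1Rb between −0.36 and −0.24 in H3.3. They were picked for this likeness, and nothing is said of shared function. The mean profile averages members in the low stretch (median log2 −0.98 for 3Rb minus 1Rb_M in γH2AX) with those outside it (0.01). Likeness to it is therefore not likeness to a given member.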

How the data were processed

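Whole-testis ChIP-seq counts per 50 kb window were deposited by the authors, 1 table per library, as whole raw counts with no normalization. Per the submitters' processing notes, CASAVA 1.8, BWA and mm10 were used; filters for duplicate or multiply mapping reads are not given in the sources used here. Groups came from sample titles. Members and lists were chosen with earlier results of these data known.

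For each mark the 9 replicated libraries were fitted together in edgeR 4.0.16 (R 4.3.3; TMM scaling, quasi-likelihood test, minimum mean count 10 per window, Benjamini-Hochberg adjustment over 53118 γH2AX or 53117 H3.3 windows). SEs follow from the fitted difference and its F value. Levels are counts over the median autosomal window of the library (209 to 1962 counts, a counting error of 2.26 to 6.92%). Input ratios carry exact 95% binomial intervals (scipy 1.17.1), which cover counting error only. Promoters were aligned with Biopython 1.88. On simulated counts the fit recovered 92% of windows changed by a log2 of 0.5 for 1Rb_M against 1Rb_P in γH2AX and 100% for 1Rb against Cg in H3.3. The simulated counts held no libraries that stand apart, and no change under 0.5 was simulated. Member differences in these comparisons were at most 0.20 and 0.38, so the recovery of changes of that size is not known. Named were all members, the flanking genes, called flank windows of comparisons without 3Rb, and the nearest profiles, of which 1 is not reported here. Replicate numbers were checked for pairing and did not pair the libraries. Alternatives were other scalings, DESeq2 1.42.0, no filter, fits of the groups alone, other window sets, single inputs, a flank base, a replicate block and leaving out libraries; the closing section gives their effect.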

Additional observations from a re-analysis of the deposited data

How the results depend on the processing

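The lower γH2AX and H3.3 of Mup1, Mup2, Mup10 and Mup17 in 3Rb kept its direction under the alternatives run for these windows. Total member calls were 8 and 7 (γH2AX against 1Rb_M and 1Rb_P), 6 and 8 (H3.3 against 1Rb and Cg). They kept to within 1.5 times of these under DESeq2, other scalings, no filter, and fits of the groups alone. These totals mix directions, and nothing is read from them. In γH2AX against 1Rb_M, 6 lower and 2 higher became 7 and 0 with library totals. Against 1Rb_P, 5 and 2 became 6 and 4 in the fit of the groups alone. Over windows of any numbered Mup gene the calls were 20, 19, 18 and 20, and 4 for H3.3 of 1Rb against Cg, with medians of −0.70, −0.62, −0.58 and −0.64. That list is longer by construction.

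Leaving out 1 library gave 5 to 8, 5 to 8, 6 to 6 and 6 to 8 calls for 3Rb against 1Rb_M, 1Rb_P, 1Rb and Cg, 1 to 2 for 1Rb against Cg, and 0 to 10 for 1Rb_M against 1Rb_P (10 without 1Rb_M replicate 3, and medians 0.087 to 0.217). The member medians ranged from −0.310 to −0.143, −0.084 to −0.034, −0.182 to −0.113, −0.159 to −0.123 and 0.033 to 0.061. Enrichment over input ranged from −0.541 to −0.511 in 3Rb, −0.165 to −0.067 in 1Rb_M and −0.251 to −0.236 in 1Rb_P for γH2AX, and from −0.773 to −0.764 in 3Rb, −0.485 to −0.446 in 1Rb and −0.553 to −0.524 in Cg for H3.3. With 1Rb_M replicate 3 alone, an alternative chosen after seeing the data, the median of 3Rb minus 1Rb_M was −0.0086 and the first Mup5 window turned to 0.011; that of 1Rb_M minus 1Rb_P turned to −0.042, with 1 call.

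With library totals as scaling, the median of all windows for 3Rb minus 1Rb_M was −0.09 (0.01 with TMM), with 16177 windows called lower and 4492 higher (10710 and 9507 with TMM), and the member median was −0.308. For 1Rb_M minus 1Rb_P the member median was 0.221, with 174 windows called lower and 391 higher (565 and 159 with TMM). For H3.3 of 3Rb against Cg it gave 2958 lower and 2504 higher (3274 and 1775 with TMM). Differences of the summed enrichment over pooled input were −0.394, −0.279, −0.307 and −0.228 for 3Rb against 1Rb_M, 1Rb_P, 1Rb and Cg. These compare sums of the member windows and are no medians over windows, and the pooled input cancels in them. Relative to the median flank window, the member medians were −0.100 for 3Rb minus 1Rb_P and 0.033 for 1Rb_M minus 1Rb_P. The cause was not tested.

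With the B6 input alone, member enrichment was −0.414 in 3Rb, −0.020 in 1Rb_M, −0.135 in 1Rb_P and −0.265 in B6 for γH2AX, and −0.657 in 3Rb, −0.350 in 1Rb and −0.429 in Cg for H3.3. With the 1Rb_M input alone it was −0.276 in 1Rb_P (γH2AX), −0.798 in 3Rb and −0.571 in Cg (H3.3). With the flanks as base it was −0.449 in 3Rb, −0.168 in 1Rb_P and −0.319 in B6 for γH2AX, and −0.944 in 3Rb, −0.657 in 1Rb and −0.707 in Cg for H3.3. The input ratio of 1Rb_M to Cg was 0.992 with the flanks as base and 1.03 with all autosomal counts as base.

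Replicate numbers did not pair the libraries: deviations of libraries with the same number correlated between −0.56 and 0.31. With a replicate block the calls stayed at 8, 7, 6 and 8 for 3Rb and at 0 and 2 for the other comparisons, with medians of −0.20, −0.06, −0.15 and −0.13 for 3Rb, 0.13 for 1Rb_M minus 1Rb_P and 0.04 for 1Rb minus Cg. The higher γH2AX of 3Rb at Mup4 and in the last Mup21 window lost its call under DESeq2 and library totals. At Mup4 against 1Rb_M it was also lost in the fit of the groups alone (0.15). The H3.3 call against Cg at Mup3 was lost under DESeq2. Leaving out 1 library also ended these calls, that of the first Mup20 window in H3.3 against Cg (without Cg replicate 1) and that of the first Mup5 window in γH2AX against 1Rb_M (without 1Rb_M replicate 1, −0.23). Windows of 50 kb cannot assign signal to 1 gene, and 1 library per input cannot give a spread.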
